A study of Mus musculus with 8 samples.

Results

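The 10 genes described here were the Toll-like receptors Tlr1, Tlr2, Tlr3, Tlr4, Tlr6, Tlr7, Tlr8 and Tlr9, their chaperone Unc93b1 and the adaptor Myd88. They were taken by gene name from the raw count table, where each name matched 1 of 55450 rows. RNA was sequenced from 4 PERK KO libraries, numbered 1 to 4, and 4 scramble libraries, numbered 2 to 5. Both groups were cells enriched with magnetic beads for c-Kit from subcutaneous B16F10 melanomas, a pigmented mouse tumour line, grown in wild-type C57BL6 mice. In the PERK KO group the injected B16F10 cells lacked PERK, the endoplasmic reticulum stress kinase encoded by Eif2ak3, and in the scramble group they carried the scramble control. The mice themselves were unmodified, were injected at 6 weeks of age with 150000 cells and gave tumours on day 17. Each library came from a numbered sample, but whether each sample was 1 tumour from its own mouse is not stated. Nor is it stated whether either tumour line was 1 clone, so p-values measure the spread between these tumour samples.

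Toll-like receptors recognise microbial molecules and, in some settings, nucleic acids and proteins released by dying cells. TLR1, TLR2, TLR4 and TLR6 sit at the cell surface, where TLR2 pairs with TLR1 or TLR6 to bind lipopeptides and TLR4 binds bacterial lipopolysaccharide together with MD-2. TLR3, TLR7, TLR8 and TLR9 signal from endosomes, which they reach with the help of the membrane protein UNC93B1; TLR3 binds double-stranded RNA, TLR7 and TLR8 are receptors for single-stranded RNA and its breakdown products, and TLR9 binds DNA with unmethylated CpG. MYD88 carries the signal of all these receptors except TLR3, which uses TRIF, and of the interleukin-1 receptor family, towards NF-kB and interferon regulatory factors. Myeloid cells and B cells are known for broad use of the family, whereas Tlr3 and Tlr4 are also transcribed in many cells outside the blood lineages.

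In PERK KO libraries 7 of the 10 genes rose and none fell, where 7.66% of 16662 tested genes were higher, 6.13% lower and 13.8% either at an adjusted p under 0.05 (edgeR quasi-likelihood test, Benjamini-Hochberg adjustment over all genes tested). Counts of 7 higher and 0 lower were also given by DESeq2, which called 11% of 18833 genes higher and 6.61% lower. The same counts were given by limma-voom, which called 1415 of 16662 genes higher and 1056 lower. At an unadjusted p under 0.05 the edgeR count was likewise 7 higher and 0 lower, where 13.3% of all genes tested were higher and 13.3% lower. The genes that rose were Tlr1, Tlr2, Tlr7, Tlr8, Tlr9, Unc93b1 and Myd88; Tlr3, Tlr4 and Tlr6 did not pass. The median log2 difference of the 10 genes was 2.23, beside -0.02 over all genes tested. At 6 of the 10 genes every PERK KO library lay above every scramble library, against 10.2% of all genes tested; 21.3% of those were separated in either direction. All 10 passed the filter on low counts: 9 exceeded its cutoff of 0.216 CPM in all 8 libraries, and Tlr6 did so in 3 PERK KO libraries and 1 scramble library.

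**Figure D1:**
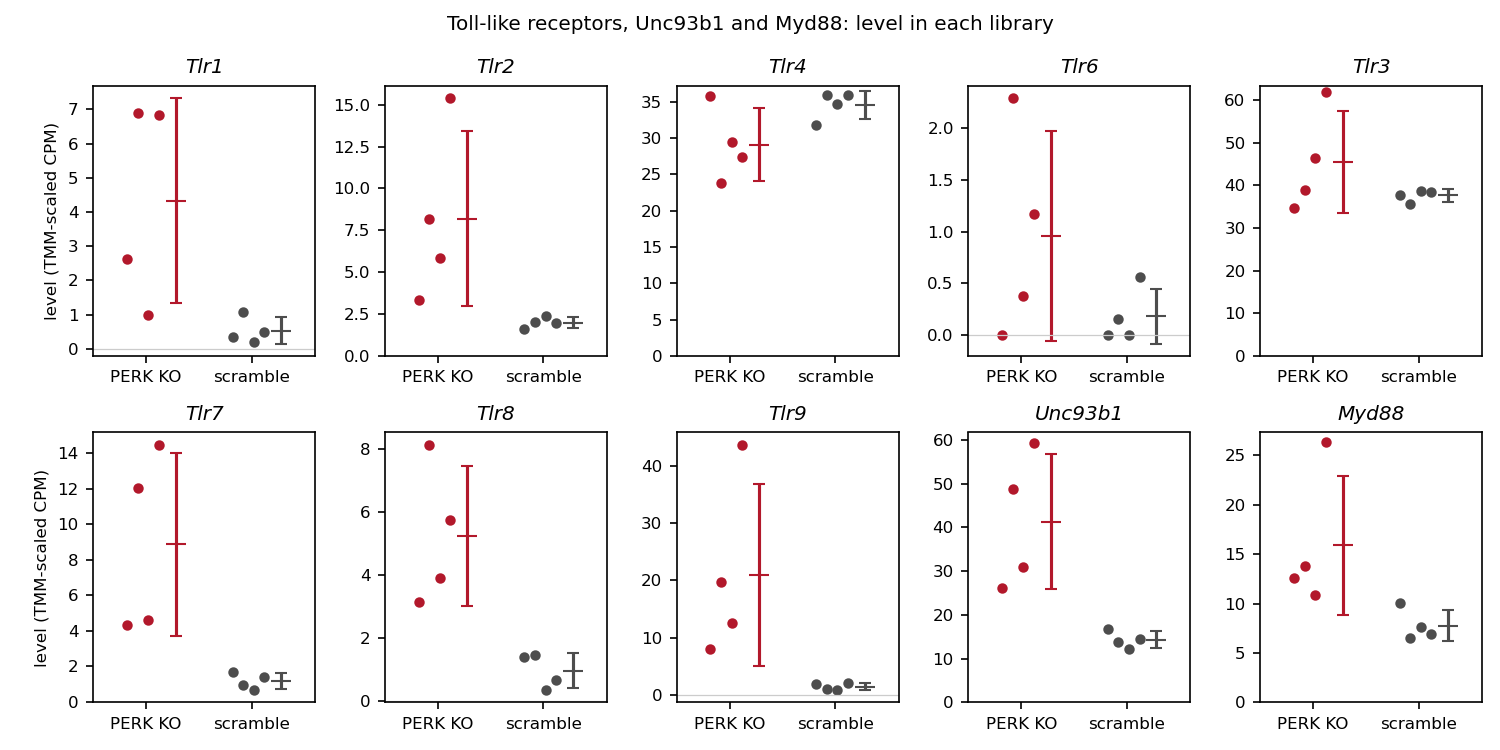
Level of each gene in TMM-scaled CPM (vertical axes, each with its own range) in the PERK KO libraries 1 to 4 (red) and the scramble libraries 2 to 5 (grey), with the mean and SD to the right of each group. The red points lie above all grey points for Tlr2, Tlr7, Tlr8, Tlr9, Unc93b1 and Myd88. For Tlr3 the red points lie on both sides of the grey ones, and for Tlr4 1 red point lies within the grey range and 3 below it.

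Promoter sequences are shown for Tlr9, Tlr2 and Myd88, which rose, and for Tlr3, which did not pass, so that start sites of both kinds can be read side by side. They are from RefSeq (GRCm38.p6) and run from 250 bases before to 50 bases after the RefSeq start, 5′ to 3′ on the strand of the gene; 7 of the 10 genes had 9 such entries between them. Capitals mark exact matches on either strand to AGGAAGT (an ETS core like that of the myeloid factor PU.1), GAAA, any 2 bases and GAAA (a pattern of interferon-stimulated response elements) or GGGA, any 4 bases and CC (an NF-kB-like pattern). The windows are chr9:106222348-106222647 (plus strand) for Tlr9, chr3:83841559-83841858 (minus strand) for Tlr2, chr9:119339969-119340268 (minus strand) for Myd88 and chr8:45410331-45410630 (minus strand) for Tlr3.
Tlr9: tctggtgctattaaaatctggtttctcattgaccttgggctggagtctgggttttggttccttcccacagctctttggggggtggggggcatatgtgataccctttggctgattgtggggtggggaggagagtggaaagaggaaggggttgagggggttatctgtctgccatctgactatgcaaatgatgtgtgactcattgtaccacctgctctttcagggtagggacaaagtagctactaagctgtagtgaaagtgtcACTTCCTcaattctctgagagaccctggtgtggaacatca
Tlr2: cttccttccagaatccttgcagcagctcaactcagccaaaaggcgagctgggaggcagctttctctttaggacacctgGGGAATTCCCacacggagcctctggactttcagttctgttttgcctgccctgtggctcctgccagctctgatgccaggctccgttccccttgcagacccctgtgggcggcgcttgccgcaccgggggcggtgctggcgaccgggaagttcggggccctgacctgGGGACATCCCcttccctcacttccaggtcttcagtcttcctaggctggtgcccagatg
Myd88: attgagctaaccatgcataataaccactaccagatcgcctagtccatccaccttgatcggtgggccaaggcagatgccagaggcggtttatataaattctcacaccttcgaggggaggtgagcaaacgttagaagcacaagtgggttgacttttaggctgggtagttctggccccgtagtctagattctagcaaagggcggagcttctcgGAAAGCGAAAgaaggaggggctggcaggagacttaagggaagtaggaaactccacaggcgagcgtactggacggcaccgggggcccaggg
Tlr3: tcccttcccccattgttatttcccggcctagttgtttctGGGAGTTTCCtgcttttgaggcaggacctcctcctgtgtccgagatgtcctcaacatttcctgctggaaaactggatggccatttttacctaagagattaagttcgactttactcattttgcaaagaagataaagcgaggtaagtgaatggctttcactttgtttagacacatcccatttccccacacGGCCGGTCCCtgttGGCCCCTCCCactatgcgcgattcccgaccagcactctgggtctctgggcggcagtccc
The RefSeq start is the first base of the GENCODE gene span for Tlr9, and lies 159, 700 and 1393 bases inside that span for Tlr2, Tlr3 and Myd88. Counted from the RefSeq start as 1, with no 0, the ETS core of Tlr9 lay at 11 to 17 on the strand opposite to the gene. In Tlr2 the NF-kB-like pattern lay at -172 to -163 and at -8 to 2, and both matches read the same pattern on either strand. The interferon-response pattern of Myd88 lay at -40 to -31. Tlr3 held 3 NF-kB-like matches, at -211 to -202, -23 to -14 and -9 to 1. Among all 32851 promoter entries of the same length, 9.35% held the ETS core, 3.44% the interferon-response pattern and 20.7% the NF-kB-like pattern. Of the 7 genes with entries, 3 held the ETS core (Tlr1, Tlr6 and Tlr9), 2 the interferon-response pattern (Tlr6 and Myd88) and 2 the NF-kB-like pattern (Tlr2 and Tlr3). Counted by entry, as those percentages are, 4 of the 9 held the ETS core, 2 the interferon-response pattern and 2 the NF-kB-like pattern. The entry of Tlr8, which rose, and another entry of Tlr1 held none of these motifs. Tlr4, Tlr7 and Unc93b1 had no entry. Each of the 4 sequences shown held a match. Matches did not overlap between motifs in these 4 sequences.

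Library totals ran from 29006949 to 47530393 counts in PERK KO and from 44950033 to 56697163 counts in scramble libraries, and a floor of 3 counts was worth 0.0515 to 0.1 CPM, counting error only. Eif2ak3 was lower in every PERK KO library, at 7.73 to 22.7 CPM, than in the scramble libraries, at 48.2 to 59.2 CPM (log2 difference -1.97, SE 0.31, n = 4 per group, edgeR adjusted p = 0.00371). The label of c-Kit-positive precursors was checked against markers: Kit itself had 139 to 211 CPM in PERK KO and 170 to 223 CPM in scramble libraries. Of 12 blood progenitor markers 9 were tested and 4 rose (Ly6a, Gata2, Myb and Cd48), while Mpo was at 0 in all libraries. Kit, Cd34, Meis1, Mecom and Hlf did not pass edgeR, with log2 differences of -0.161, 0.615, -0.058, -0.113 and -0.341. Gata2 is also on the list of mast cell markers below. The 12 melanocyte markers, Kit among them, summed to 16600 to 20100 CPM in PERK KO and 24900 to 25500 CPM in scramble libraries, so the enriched fraction held abundant transcripts of the melanocyte lineage. Of these 12 markers 7 were lower in PERK KO and 0 higher, where 6.13% of all genes tested were lower. Calls over all genes numbered 1277 higher and 1022 lower.

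Leukocyte markers moved with the receptors. Of 19 pan-leukocyte markers 17 rose, and the 19 summed to 494 to 1690 CPM in PERK KO and 229 to 294 CPM in scramble libraries. The largest part of the scramble sum was Arhgap30, which did not pass edgeR (log2 difference -0.19). It had 88.0 to 125 CPM in PERK KO and 110 to 119 CPM in scramble libraries. Of 12 monocyte and macrophage markers 11 rose (266 to 773 CPM in PERK KO, 62.3 to 132 CPM in scramble). Of 10 conventional dendritic cell markers 8 rose (370 to 581 CPM in PERK KO, 132 to 180 CPM in scramble). Most of the dendritic sum came from Fscn1, at 315 to 409 CPM in PERK KO and 125 to 163 CPM in scramble libraries. All 10 mast cell markers rose (714 to 3140 CPM in PERK KO, 23.4 to 168 CPM in scramble). Of 10 epithelial markers 9 rose (92.9 to 243 CPM in PERK KO, 3.31 to 5.98 CPM in scramble). Plasmacytoid dendritic cells and B cells, known users of Tlr7 and Tlr9, gave less: 8 plasmacytoid markers summed to 75.3 to 101 CPM in PERK KO and 72.5 to 99.4 CPM in scramble libraries, mostly from the broadly used Tcf4, while Siglech averaged 0.409 CPM in PERK KO and 0.0634 CPM in scramble and did not pass the low-count filter. Among 8 plasmacytoid markers 4 were tested and 2 rose, Ly6d and Lair1. Of 8 B cell markers 4 were tested and none passed edgeR; they summed to 1.59 to 18.1 CPM in PERK KO, the highest value in library 4, and 0.801 to 3.1 CPM in scramble libraries. Of 8 neutrophil markers 3 were tested and Csf3r rose, with summed levels of 2.34 to 13.5 CPM in PERK KO and 0.58 to 2.28 CPM in scramble libraries; Ly6g, Camp and Ngp were at 0 in all libraries. None of 10 endothelial markers passed edgeR (104 to 303 CPM in PERK KO, 57.3 to 218 CPM in scramble). The part of these cell types in the results below was not tested. In bulk libraries, fewer cells of a type and less RNA per cell cannot be told apart.

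Among the surface receptors, Tlr2 and Tlr1 rose. Tlr2, the shared chain of the lipopeptide receptors (ENSMUSG00000027995.10, mm10 chromosome 3, 83836272 to 83841767), had 3.35, 8.20, 5.83 and 15.4 CPM in PERK KO libraries 1 to 4, against 1.59, 2.03, 2.38 and 1.94 CPM in scramble libraries 2 to 5. Every PERK KO library lay above every scramble library, and PERK KO library 4 was the highest. The log2 difference was 2.05 (SE 0.43, n = 4 per group, edgeR adjusted p = 0.0102), a 4.13-fold rise, and ranged from 1.54 to 2.32 with each library left out in turn.

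Tlr1, a partner of TLR2 for triacylated lipopeptides (ENSMUSG00000044827.10, chromosome 5, 64924679 to 64933563), had 2.61, 6.88, 0.999 and 6.84 CPM in PERK KO libraries 1 to 4, against 0.344, 1.08, 0.217 and 0.503 CPM in scramble libraries 2 to 5. The groups overlapped, because PERK KO library 3 lay just below scramble library 3. Tlr1 rose by 3.00 log2 units (SE 0.72, n = 4 per group, edgeR adjusted p = 0.0179). Leaving out scramble replicate 2 or 5 took it past the threshold (edgeR adjusted p = 0.0599 and 0.0568), and without scramble replicate 3 the log2 difference was 3.59.

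Tlr6, the other partner of TLR2 (ENSMUSG00000051498.6, chromosome 5, 64952031 to 64960097), had the fewest counts of the 10 genes. It had 0, 94, 16 and 45 counts in PERK KO libraries 1 to 4, against 0, 9, 0 and 29 counts in scramble libraries 2 to 5. Both groups held a library with no count, and the difference did not pass (log2 difference 2.41, SE 1.71, n = 4 per group, edgeR adjusted p = 0.431). It was 1.53 without PERK_KO replicate 2 and 4.12 without scramble replicate 5, neither of which passed edgeR (adjusted p = 0.694 and 0.292). Tlr1 and Tlr6 are neighbouring close copies: 8.35% of the 105-base windows of the longest Tlr1 transcript and 6.83% of those of Tlr6 occur in the other gene, with a longest identical run of 229 bases, so the split of reads between them is uncertain. The other 8 genes shared no such window with any other gene.

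Tlr4, the lipopolysaccharide receptor (ENSMUSG00000039005.13, chromosome 4, 66827584 to 66930284), was among the more abundant members in both groups. Its level was 35.8, 23.8, 29.5 and 27.4 CPM in PERK KO libraries 1 to 4, against 31.8, 36.0, 34.7 and 35.9 CPM in scramble libraries 2 to 5. PERK KO library 1 lay within the scramble range and the other PERK KO libraries below it. The log2 difference was -0.25 (SE 0.13, n = 4 per group, edgeR adjusted p = 0.263).

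All endosomal receptors except Tlr3 rose. Tlr9, the CpG DNA receptor (ENSMUSG00000045322.10, chromosome 9, 106222598 to 106226883), showed the highest log2 difference of the 10 genes. It had 8.07, 19.6, 12.5 and 43.6 CPM in PERK KO libraries 1 to 4, against 1.88, 1.03, 0.845 and 2.09 CPM in scramble libraries 2 to 5. The lowest PERK KO library stood well above the highest scramble library. Tlr9 rose by 3.84 log2 units (SE 0.55, n = 4 per group, edgeR adjusted p = 0.00264), a 14.3-fold rise, and by 3.19 without PERK_KO replicate 4.

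Tlr7, a receptor for single-stranded RNA (ENSMUSG00000044583.13, X chromosome, 167304929 to 167330558), had 4.32, 12.1, 4.60 and 14.5 CPM in PERK KO libraries 1 to 4, against 1.67, 0.962, 0.650 and 1.39 CPM in scramble libraries 2 to 5. Its neighbour Tlr8 (ENSMUSG00000040522.5, X chromosome, 167242696 to 167264329) had 3.15, 8.15, 3.92 and 5.77 CPM in PERK KO libraries 1 to 4, against 1.39, 1.48, 0.347 and 0.658 CPM in scramble libraries 2 to 5. For both genes the groups did not overlap. PERK KO library 2 was the highest for Tlr8 and library 4 the highest for Tlr7. Tlr7 rose by 2.92 log2 units (SE 0.48, n = 4 per group, edgeR adjusted p = 0.00341) and Tlr8 by 2.43 (SE 0.53, n = 4 per group, edgeR adjusted p = 0.0118). Both calls held with each library left out, with edgeR adjusted p up to 0.0175 for Tlr7 and 0.0437 for Tlr8.

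Tlr3, the double-stranded RNA receptor (ENSMUSG00000031639.12, chromosome 8, 45395665 to 45411080), had 34.7, 38.9, 46.4 and 61.9 CPM in PERK KO libraries 1 to 4, against 37.8, 35.5, 38.6 and 38.5 CPM in scramble libraries 2 to 5. The scramble values lay close together and the PERK KO values fell on both sides of them. Its log2 difference of 0.27 (SE 0.16, n = 4 per group) did not pass (edgeR adjusted p = 0.314), and was 0.085 without PERK_KO replicate 4. The antisense gene Gm45542 covers 7.32% of the exon bases of Tlr3; the libraries were strand-specific, but the strand setting of the counting is not given in the sources used here.

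The chaperone and the adaptor both rose, by less than the endosomal receptors that passed. Unc93b1 (ENSMUSG00000036908.17, chromosome 19, 3935186 to 3949340), which brings TLR3, TLR7, TLR8 and TLR9 from the endoplasmic reticulum to endosomes, had 26.1, 48.7, 30.9 and 59.3 CPM in PERK KO libraries 1 to 4, against 16.9, 13.8, 12.3 and 14.5 CPM in scramble libraries 2 to 5. The groups did not overlap. Unc93b1 rose by 1.52 log2 units (SE 0.24, n = 4 per group, edgeR adjusted p = 0.00257), and by 1.29 to 1.70 with each library left out. It had the smallest p of the 10 genes.

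Myd88 (ENSMUSG00000032508.8, chromosome 9, 119335934 to 119341411) had 12.6, 13.8, 10.9 and 26.3 CPM in PERK KO libraries 1 to 4, against 10.1, 6.54, 7.60 and 6.91 CPM in scramble libraries 2 to 5. PERK KO library 3 lay close above scramble library 2, and PERK KO library 4 stood apart. The log2 difference was 1.03 (SE 0.28, n = 4 per group, edgeR adjusted p = 0.0308), and 0.67 without PERK_KO replicate 4. Its call ended without that library (edgeR adjusted p = 0.0671), on leaving out scramble replicate 3, 4 or 5 (edgeR adjusted p = 0.101, 0.0804 and 0.0918), and with library totals in place of TMM factors (edgeR adjusted p = 0.0504). Exons of Acaa1a on the opposite strand cover 11.3% of those of Myd88.

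**Figure D2:**
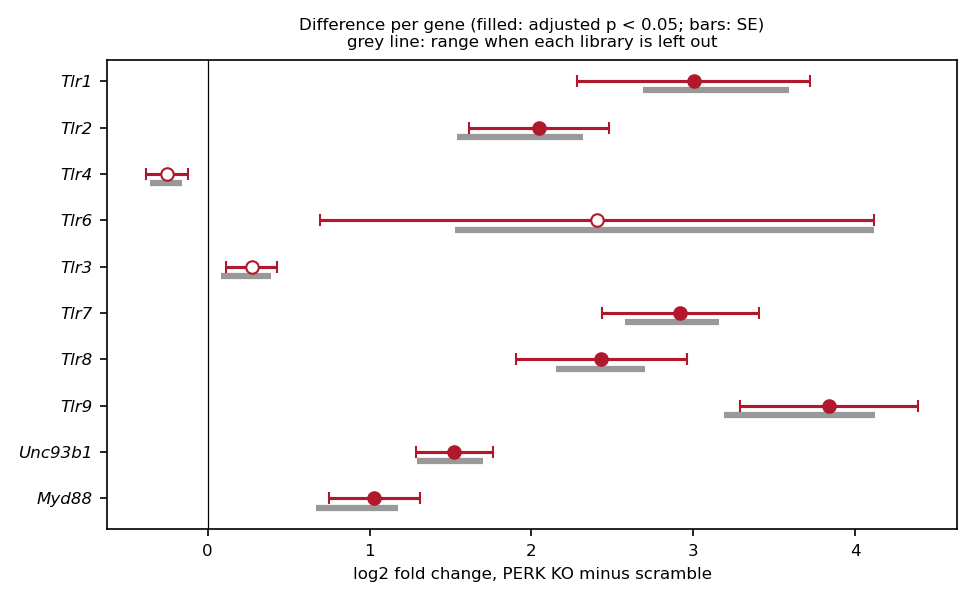
Log2 fold change of each gene, PERK KO minus scramble (horizontal axis), with its SE; filled points have an edgeR adjusted p under 0.05, and the grey line under each point spans the values with each of the 8 libraries left out. Tlr9 lies farthest right at 3.84, Tlr3 and Tlr4 lie at 0.27 and -0.25, and Tlr6 has the widest SE at 1.71.

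Per length of merged exons, the order of the levels differed between the groups. In PERK KO libraries Unc93b1 was the most abundant at 13.6 ± 5.1 CPM per kilobase (SD, n = 4), followed by Tlr3 at 8.73 ± 2.3, Myd88 at 6.17 ± 2.74, Tlr9 at 6.03 ± 4.56, Tlr4 at 5.24 ± 0.91, Tlr2 at 2.72 ± 1.73, Tlr7 at 2.17 ± 1.27, Tlr8 at 1.46 ± 0.62, Tlr1 at 1.29 ± 0.894 and Tlr6 at 0.257 ± 0.272 CPM per kilobase. Every pair of neighbours in that order overlapped between libraries. In scramble libraries Tlr3 came first at 7.23 ± 0.277 CPM per kilobase (SD, n = 4), then Tlr4 at 6.23 ± 0.348, Unc93b1 at 4.73 ± 0.627, Myd88 at 3.02 ± 0.619, Tlr2 at 0.658 ± 0.108, Tlr9 at 0.42 ± 0.177, Tlr7 at 0.286 ± 0.11, Tlr8 at 0.27 ± 0.155, Tlr1 at 0.16 ± 0.114 and Tlr6 at 0.048 ± 0.0711 CPM per kilobase. There the first 4 genes were separated from each other and from Tlr2 in all libraries, and the neighbours from Tlr2 down overlapped.

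The makeup of the receptor transcripts shifted with these levels. The 8 receptors together came to 19.3, 28, 22.4 and 42 CPM per kilobase in PERK KO libraries 1 to 4, against 15 to 15.9 CPM per kilobase in the scramble libraries. Tlr3 and Tlr4 together made up 53.4 ± 14.5% of this sum in PERK KO libraries (SD, n = 4; 40.0 to 68.1%) and 88.0 ± 2.0% in scramble libraries (n = 4; 86.8 to 91.0%). Tlr9 alone held 19.5 ± 7.65% in PERK KO libraries (n = 4) and 2.74 ± 1.12% in scramble libraries (n = 4). The groups did not overlap for either share. These shares follow from the differences above and were given no test of their own.

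**Figure D3:**
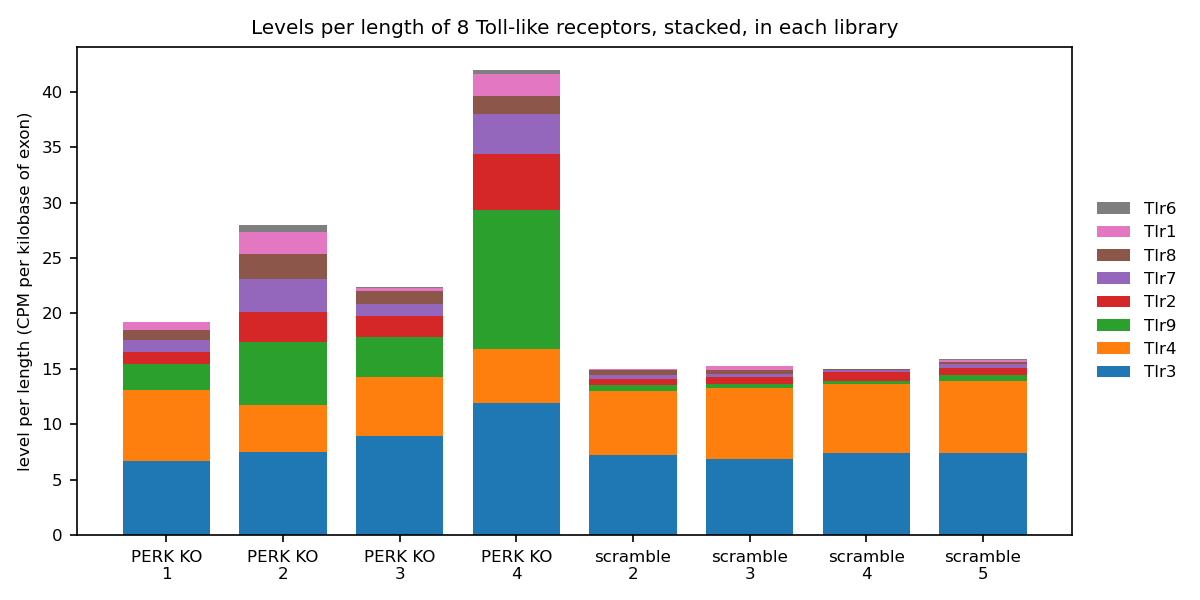
Levels of the 8 Toll-like receptors in CPM per kilobase of exon (vertical axis), stacked, in each PERK KO library (left) and each scramble library (right). The scramble bars end at 15 to 15.9 and are mostly Tlr3 (blue) and Tlr4 (orange); the PERK KO bars end at 19.3 to 42 with a Tlr9 part (green) visible in each.

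Set against Ptprc, which encodes the pan-leukocyte surface phosphatase CD45, the genes fell into 3 patterns. Ptprc itself had 20.9, 43.3, 32.8 and 115 CPM in PERK KO libraries 1 to 4, against 8.82, 6.99, 3.42 and 9.67 CPM in scramble libraries 2 to 5. The groups did not overlap. The log2 ratio of Tlr9 to Ptprc within a library, with a prior count of 2, was -1.32 ± 0.12 in PERK KO and -2.27 ± 0.32 in scramble libraries (SD, n = 4 each). It was higher in each PERK KO library than in any scramble library, as for 0.69% of the other 16661 genes tested. That share is over genes of all kinds and was not taken among leukocyte genes alone. Relative to Ptprc, markers of several cell types were separated in the same direction, so this was not particular to Tlr9. Among them, named after their values were seen, were Cpa3 and Cma1 (mast cell), Cd52 (pan-leukocyte), Ccr7 (dendritic) and Epcam (epithelial). The mast cell marker Il1rl1 overlapped between the groups. The ratios of Tlr3, Tlr4, Unc93b1 and Myd88 were lower in each PERK KO library than in any scramble library, with differences of -2.43, -2.93, -1.22 and -1.71; 78.2% of the other genes tested were separated in this direction. Ratios of Tlr1, Tlr2, Tlr6, Tlr7 and Tlr8 overlapped between the groups, with differences of 0.09, -0.85, -0.72, 0.08 and -0.18; that of Tlr6 rests partly on the prior count. With the mean of the 19 pan-leukocyte markers as a covariate, none of the 10 genes passed edgeR, and none had an unadjusted p under 0.05; over all genes tested, 0.072% passed and 8.99% had an unadjusted p under 0.05. DESeq2 was not run with this covariate. The log2 difference of Tlr9 was then 1.05 (SE 0.54, edgeR adjusted p = 0.595). That mean log2 CPM was 4.83 in PERK KO and 2.47 in scramble libraries, and 78.6% of its variance lay between the groups.

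**Figure D4:**
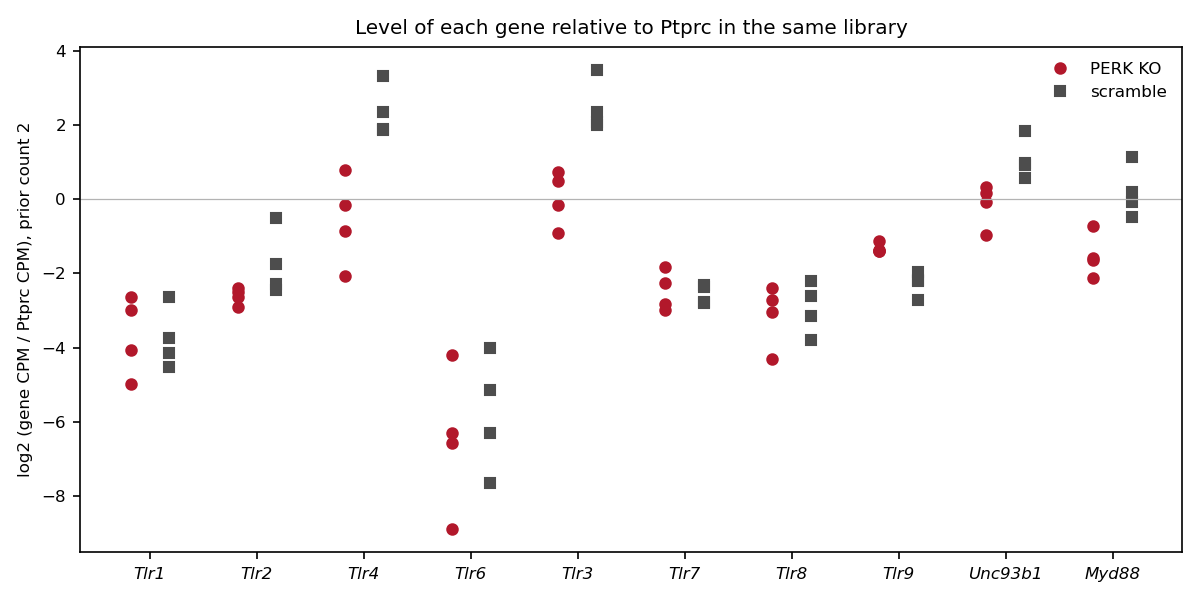
Log2 ratio of each gene's CPM to that of Ptprc in the same library (vertical axis, prior count 2) for the 4 PERK KO (red circles) and 4 scramble libraries (grey squares). Red lies above grey for Tlr9, below grey for Tlr4, Tlr3, Unc93b1 and Myd88, and overlaps grey for the other 5 genes.

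For each gene the nearest of 11042 other expressed genes was found by the root-mean-square difference between log2 CPM profiles over the 8 libraries, each centred on its mean. Fcer1g, the common chain of Fc receptors, was nearest to Tlr7 (0.23 log2 units), Fcgr2b, an inhibitory Fc receptor, to Unc93b1 (0.124), and Themis2, a signalling protein of myeloid and B cells, to Tlr9 (0.251). Btg2 was nearest to Tlr2 (0.262) and Btg1, an antiproliferative protein, to Myd88 (0.159), Tgm2, a transglutaminase, to Tlr8 (0.364) and Rasgef1b to Tlr1 (0.424). The profile of Tlr4 was matched within 0.03 by Dusp22 and that of Tlr3 within 0.063 by Tbc1d4. Tlr6 had no close match, with Arhgef3 nearest at 1.09.

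Elsewhere in the pathway the genes that passed were mainly receptors, co-receptors and restraints. Of 58 other pathway genes, 56 were tested, 16 rose and none fell in edgeR, against 7.66% higher and 6.13% lower over all genes tested. DESeq2 gave 24 higher and 0 lower of 58, against 11% and 6.61% over all genes. At an unadjusted p under 0.05 edgeR had 23 higher and 4 lower, against 13.3% each way. Lower calls appeared with library totals (15 higher, 2 lower), without PERK_KO replicate 2 (11 higher, 2 lower) and without PERK_KO replicate 1 (20 higher, 1 lower). The median log2 difference of the 56 was 0.27. Of the 16 calls, 5 held with each library left out in turn, namely Cd14, Cd180, Atf3, Tnfaip3 and Il1rl1.

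Among 4 further Toll-like receptors, Tlr5, Tlr11 and Tlr13 rose and Tlr12 did not pass. Tlr13, a mouse receptor for bacterial ribosomal RNA, averaged 10.6 ± 5.92 CPM in PERK KO and 2.498 ± 1.503 CPM in scramble libraries (SD, n = 4 each, edgeR adjusted p = 0.0255). Tlr11, a mouse receptor for the protozoan protein profilin, averaged 5.83 ± 6.46 CPM in PERK KO and 0.279 ± 0.312 CPM in scramble libraries (n = 4 each, edgeR adjusted p = 0.0274), with 15.4 CPM in PERK KO library 4. Tlr5, the flagellin receptor, averaged 2.48 ± 0.585 CPM in PERK KO and 0.478 ± 0.211 CPM in scramble libraries (n = 4 each, edgeR adjusted p = 0.0235). Each of these calls was lost in some fits with 1 library left out: Tlr5 without any of the 4 scramble libraries (edgeR adjusted p = 0.0539 to 0.0726), Tlr11 without PERK_KO replicate 4 or scramble replicates 2 or 3 (0.0789, 0.0882 and 0.0993), and Tlr13 without PERK_KO replicates 2 or 4 or scramble replicates 3 or 5 (0.0624, 0.0611, 0.0908 and 0.0533). The log2 difference of Tlr11, 4.37 in the full fit, was 3.23 without PERK_KO replicate 4 and 5.38 without scramble replicate 5.

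Of 14 co-receptor and receptor-processing genes 5 rose. Cd14, which hands lipopolysaccharide to TLR4, averaged 14.0 ± 5.69 CPM in PERK KO and 2.63 ± 0.735 CPM in scramble libraries (SD, n = 4 each), and its log2 difference of 2.41 (SE 0.34) had an edgeR adjusted p of 0.00166. Cd180 and Ly86, which encode a TLR4-like surface receptor and its MD-1 partner, rose by 2.87 and 3.08 on the log2 scale (edgeR adjusted p = 0.0116 and 0.0125); that of Cd180 was 2.26 without PERK_KO replicate 4, and Ly86 no longer passed once scramble replicate 3 was left out (edgeR adjusted p = 0.0529). Lgmn, an endosomal protease that cleaves TLR9, rose by 0.85 (edgeR adjusted p = 0.0216), a call lost on leaving out PERK_KO replicate 2 or scramble replicate 2, 3 or 4 (edgeR adjusted p = 0.0609, 0.061, 0.0691 and 0.0563). Ctss, another such protease, named after its values were seen, rose by 2.52 (edgeR adjusted p = 0.0232) and held in 6 of 8 fits with 1 library left out (edgeR adjusted p up to 0.0816). Ly96, which encodes MD-2 and was also named after its values were seen, averaged 51.1 ± 20.1 CPM in PERK KO and 33.65 ± 4.42 CPM in scramble libraries and did not pass (n = 4 each, edgeR adjusted p = 0.0937).

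None of 17 adaptors, kinases and ubiquitin ligases downstream of the receptors passed edgeR, while DESeq2 called 1 higher, Irak2, named after its values were seen (log2 difference 0.60, adjusted p = 0.034); at an unadjusted p under 0.05 edgeR had 2 higher and 3 lower. Their median log2 difference was -0.05, within a range of -0.40 to 0.89. Irak1, a kinase recruited by MYD88, averaged 118 ± 9.58 CPM in PERK KO and 134.5 ± 8.996 CPM in scramble libraries (SD, n = 4 each, edgeR adjusted p = 0.192). Tab2, which links TRAF6 to the kinase TAK1, averaged 170 ± 19.9 CPM in PERK KO and 177 ± 11.5 CPM in scramble libraries (n = 4 each, edgeR adjusted p = 0.81). Map3k7, Traf3, Ikbkg and Tbk1, named after their values were seen, were lower in each PERK KO library than in any scramble library without passing edgeR (adjusted p = 0.0612, 0.0688, 0.0689 and 0.194), where 11.1% of all genes tested were separated in this direction.

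Of 10 restraints of the pathway 5 rose. Atf3, a transcriptional repressor induced by Toll-like receptor signals, rose by 1.18 on the log2 scale and Tnfaip3, the deubiquitinase A20, by 2.06 (edgeR adjusted p = 0.0025 and 0.00473). Irak3, an inhibitory IRAK family member of myeloid cells, rose by 2.10 and Sigirr, an inhibitory receptor of the interleukin-1 family, by 0.86 (edgeR adjusted p = 0.0246 and 0.0286). The Irak3 call held in 2 and the Sigirr call in 3 of 8 fits with 1 library left out, with edgeR adjusted p up to 0.0756 and 0.0963. Dusp1, a MAP kinase phosphatase named after its values were seen, rose by 0.99 (edgeR adjusted p = 0.0446), by 0.67 without PERK_KO replicate 4, and held in 2 of 8 such fits (edgeR adjusted p up to 0.108).

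Of 7 transcription factors of the pathway 2 rose. Irf5, which acts below MYD88, averaged 21.0 ± 22.0 CPM in PERK KO and 2.42 ± 0.719 CPM in scramble libraries (SD, n = 4 each, edgeR adjusted p = 0.021), with 53.3 CPM in PERK KO library 4; its log2 difference of 3.12 was 2.07 without PERK_KO replicate 4, and it did not pass once scramble replicate 2, 3 or 5 was left out (edgeR adjusted p = 0.0633, 0.0711 and 0.0667). Rel, the NF-kB subunit c-Rel, rose by 1.49 (edgeR adjusted p = 0.0359), and by 0.89 without PERK_KO replicate 4; that call ended without any of the scramble libraries (edgeR adjusted p = 0.08 to 0.103). Among 6 interleukin-1 family receptor genes 4 were tested, and Il1rl1, the interleukin-33 receptor also carried by mast cells, rose by 3.51 (SE 0.62, edgeR adjusted p = 0.00975).

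**Figure D5:**
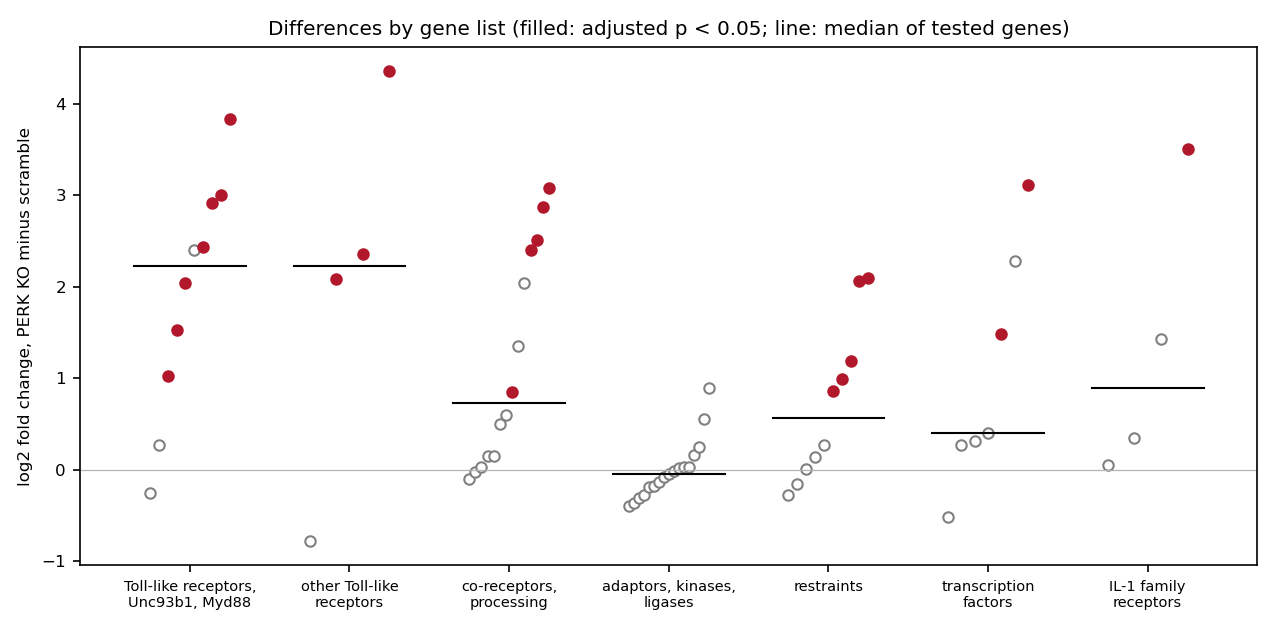
Log2 fold change, PERK KO minus scramble (vertical axis), of the tested genes of each list, ordered within the list; filled red points have an edgeR adjusted p under 0.05 and the black line is the list's median. The median is 2.23 for the 10 genes and -0.05 for the 17 adaptors, kinases and ligases, none of which is filled.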

How the data were processed

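Libraries were strand-specific, made from 100 ng of RNA and read as pairs of 105 bases, per the labels' protocols. The authors deposited whole-number counts per gene and library; STAR 2.5.3a, HTSeq 0.6.1 and the build mm10 are named in the submitters' processing notes, without settings. Their normalised table was not used. All 55450 identifiers matched GENCODE M21, which gave positions and exon lengths.

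Genes were filtered with filterByExpr (minimum count 10), scaled with TMM factors (0.863 to 1.03) and tested with the robust quasi-likelihood test of edgeR 4.0.16 in R 4.3.3 (PERK KO against scramble, Benjamini-Hochberg adjustment over 16662 genes, threshold 0.05). The SE is the log2 difference divided by the square root of F. CPM used TMM-scaled library sizes; log2 CPM used a prior count of 2. The fit was tested on simulated data with 50 genes changed at each of 4 sizes. It recovered 22% of 1.5-fold, 46% of 2-fold, 88% of 4-fold and 84% of 8-fold changes, with 4 false calls among 16462 unchanged genes. Small differences can therefore be missed. Simulated counts were drawn independently for each gene, with a spread set by its mean level. Genes of low mean level were not among those changed. Genes that move together were not simulated, so these rates need not hold for the real libraries. The 10 genes and all lists were chosen with earlier results of these data known. Named beside the 10 were, per pathway list, up to 4 calls per direction ranked by p, or where none was called the 2 genes of highest mean level, the nearest profile of each gene, and Ptprc, Eif2ak3 and Kit; exceptions are marked. Alternatives were DESeq2 1.42.0, limma-voom (limma 3.58.1) with quality weights, other scalings and filters, a non-robust fit, a replicate block, covariates, and leaving out each library. Plots were made with matplotlib 3.10.9.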

Additional observations from a re-analysis of the deposited data

Results flagged for a closer look

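Of 138 groups of 4 libraries examined, 5 held a library far from the other 3; chance flags about 1 in 20 groups. Relative to Ptprc, Tlr9 had a log2 ratio of -1.14 in PERK KO library 2, where the others had -1.40 to -1.37 (gap 0.873 of the range). Rel had 123 CPM in PERK KO library 4 and 39.1 to 42.6 CPM in the other PERK KO libraries (gap 0.958 of the range). B cell markers summed to 18.1 CPM in PERK KO library 4 and 1.59 to 3.39 CPM in the others (0.891). In scramble library 4, Il1rl1 had 0.693 CPM against 3.97 to 4.3 CPM in the other scramble libraries (0.909), and endothelial markers summed to 57.3 CPM against 193 to 218 CPM (0.847).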

How the results depend on the processing

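Of the 10 genes, 7 were called with RLE or upper-quartile factors, with either other filter, with DESeq2, with limma-voom and in the fit that is not robust, and 6 with library totals; 5 to 7 were called with each library left out. Calls over all genes ranged from 1078 to 2616 with each library left out (1283, 1078, 1428 and 1361 without scramble replicates 2, 3, 4 and 5), and calls among the other pathway genes from 5 to 21 (7, 5 and 9 without scramble replicates 2, 3 and 5). Without a low-count filter 9 other pathway genes were called. Of calls over all genes 55.5% were higher with TMM, 68.7% with upper-quartile factors and 47.7% with library totals. With the pan-leukocyte covariate edgeR called 12 genes in all (1498 at an unadjusted p under 0.05), 0 of the 10 (0 unadjusted) and 0 other pathway genes (4 unadjusted); the log2 difference turned to -2.16 for Tlr6, -0.36 for Tlr3 and -0.18 for Myd88. With the melanocyte covariate, 94.6% of whose variance lay between the groups, edgeR called 0 genes in all (1703 unadjusted), 0 of the 10 (1 unadjusted) and 0 other pathway genes (12 unadjusted); the log2 difference turned to -1.23 for Tlr1, -1.65 for Tlr2, 0.37 for Tlr4, -3.50 for Tlr6, -1.04 for Tlr3, -1.86 for Tlr7, -1.61 for Tlr9, -1.13 for Unc93b1 and -2.11 for Myd88. DESeq2 was not run with covariates. Numbers 2, 3 and 4 occur in both groups, but the labels tie them to no shared animal or batch, and deviations of same-numbered libraries correlated at -0.009, 0.098 and -0.204, with library 3 alone closest to its own number. With the number as a replicate block, 208 genes were called in all, 2 of the 10 (Tlr9 and Unc93b1) and 1 other pathway gene. At an unadjusted p under 0.05 that edgeR fit had 7 of the 10 higher and 1 lower. Other pathway genes had 21 higher and 3 lower, and all genes tested 1631 higher and 1760 lower. PERK KO library 1 and scramble library 5 had no partner in this block. Why a result moved was not tested. Depth limits Tlr6 most, with 155 counts over the PERK KO and 38 over the scramble libraries.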

Other observations

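The genes below were named after their values were seen. The interleukin-18 receptor chains, which also signal through MYD88, did not pass the low-count filter of the edgeR test, while DESeq2, run without that filter, called both higher, with log2 differences of 4.12 for Il18r1 (SE 1.56, DESeq2 adjusted p = 0.0474) and 3.49 for Il18rap (SE 1.24, DESeq2 adjusted p = 0.0311). Il18r1 had 0.737, 0, 1.62 and 3.30 CPM in PERK KO libraries 1 to 4, and 0.145, 0.189, 0 and 0 CPM in scramble libraries 2 to 5. Il18rap had 0, 2.10, 0.511 and 2.44 CPM in PERK KO libraries 1 to 4, and 0.127, 0.0172, 0.13 and 0.194 CPM in scramble libraries 2 to 5. Irf7, a factor below the endosomal receptors, was higher in each PERK KO library (11.1, 28.9, 12.2 and 79.4 CPM) than in any scramble library (9.11, 7.49, 4.07 and 6.35 CPM) without passing edgeR (adjusted p = 0.0594). Irf3, which acts below TRIF, had 20.04 ± 4.58 CPM in PERK KO and 28.7 ± 2.81 CPM in scramble libraries (SD, n = 4 each) and did not pass (edgeR adjusted p = 0.0694).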
